A study of Mus musculus with 40 samples.

Results

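The Cep genes of the mouse encode centrosomal proteins that share a naming system and not a common ancestor. They were taken here as all genes whose symbol is Cep followed by a number, with an optional letter or letter and number after it, and without antisense partners. At least 1 count over all libraries was also required. By that rule 35 of the 55492 genes in the deposited table were members. Of these, 34 were measured, meaning that they reached 20 or more counts summed over all libraries, and Cep170b was not. The members lie on 15 chromosomes.

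The study made single-cell RNA sequencing libraries from testis spermatocytes of C57BL/6J mice aged 6 to 8 weeks. There were 20 libraries named Metaphase I and 20 named Pachytene, each from 1 cell. Per the labels' protocols, pachytene spermatocytes were separated by centrifugal elutriation, which sorts cells by sedimentation, and 4 µM okadaic acid, an inhibitor of the phosphatases PP1 and PP2A, was given for 5 h to drive cells to metaphase I. This text stands on all 40 libraries, so stage, drug and time in culture cannot be told apart, and the sources used here do not give whether Pachytene cells spent time in drug-free culture. No animal or culture is named, so each group counts as 1 sample of 20 cells. Ratios between the groups carry no test and no replicate check, and intervals cover counting error only.

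A centrosome is a pair of centrioles inside a cloud of pericentriolar material that nucleates microtubules. Cep proteins build the centriole, hold the pair together, form the appendages with which a centriole docks at a membrane, and sit in the satellites and the cilium base around it. In male meiosis the centrosomes duplicate and form the poles of the metaphase I spindle, and in the spermatid a centriole later becomes the base of the flagellum.

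Metaphase I cells held 198117 to 1497037 counts with a median of 540662, and Pachytene cells held 165048 to 2325564 with a median of 730979. Genes of the pachytene list summed to 11767 to 29876 CPM (counts per 1000000 counts of a library) in Metaphase I cells and 19407 to 34532 CPM in Pachytene cells. Most of that was Ldhc, with medians of 18410 CPM in Metaphase I and 17768 CPM in Pachytene. Gene by gene the list leaned to Metaphase I, where 9 of its 12 genes were higher. Their median log2 ratio of Metaphase I over Pachytene was 0.47, or 0.40 without the 8 libraries described below. The 13 M-phase genes, among them Aurka, Ccnb1 and Plk1, summed to 1026 to 4205 CPM in Metaphase I cells, median 2207 CPM, and to 961 to 4251 CPM in Pachytene cells, median 1619 CPM. The groups overlapped over most of that range. In 8 libraries X-linked genes, which are largely silent in pachytene spermatocytes, held over 0.3% of counts. In 7 of them the 14 spermatid markers summed to 1948 to 8086 CPM. These were Metaphase I replicates 3, 7 and 17 and Pachytene replicates 2, 3, 7 and 19. The other 16 Metaphase I cells reached at most 775 CPM and the other 16 Pachytene cells at most 1497 CPM. Not every marker peaked in these libraries. Prm1, Prm2 and Tnp2 had their largest counts in Metaphase I replicates 14, 15 and 16, in that order, and each in Pachytene replicate 1. The other markers had theirs in Metaphase I replicate 3 and Pachytene replicate 7. In the eighth library, Metaphase I replicate 19, the 12 Sertoli markers summed to 15697 CPM, against at most 220 CPM in the other 16. Clu gave 10454.5 CPM of that sum, and 4 of the 12 markers had 0 counts in Metaphase I. Replicate 19 was also the highest Metaphase I cell for the spermatogonia markers, at 440 CPM. The same held for the Leydig, peritubular and blood markers, at 224 CPM. The log2 ratios of the members described are given with all 40 libraries and without these 8.

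The Cep genes together held nearly the same share of RNA in both groups, and individual members were seldom far apart between them. They summed to 4105 CPM in Metaphase I, 56278 counts or 0.411% of all counts, and to 4023 CPM in Pachytene, 71058 counts or 0.402%. That is a 1.02-fold ratio with a 95% counting interval of 1.01 to 1.03. Per cell, the sum ran from 2122 CPM through a median of 4247 to 5263 CPM in Metaphase I, and from 3511 CPM through a median of 3894 to 5348 CPM in Pachytene. The groups overlapped almost entirely, and the lowest Metaphase I cell was replicate 19, the library with Sertoli markers.

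Cep78 was the 1 measured member of 34 over 2-fold higher in Metaphase I by the log2 ratio of summed CPM with 1 CPM added, and 0 of 34 were over 2-fold lower. Among all 16174 measured genes, 8.49% were over 2-fold higher and 9.81% over 2-fold lower. Without the 8 libraries, 1 member was higher and 0 were lower, beside 5.65% and 3.69% of all measured genes. Every gene with 20 or more summed counts entered these shares, with no matching to the members by level. Cep68 had 89 summed counts, and the other measured members ran from 428 for Cep250 to 19039 for Cep63. Whether the members differed from genes of like level was not tested. The median log2 ratio of the members was 0.07, with quartiles of -0.11 and 0.30, and that of all measured genes was -0.0010, with quartiles of -0.40 and 0.38. In all, 30 of the 34 lay within 0.5 of 0 on this log2 scale, 18 were positive and 16 negative. Without the 8 libraries 27 were positive and 7 negative, and the members' median was 0.18, beside 0.0045 for all measured genes. The shares of all measured genes within 0.5 of 0, or on either side of 0, were not counted. These counts of members therefore have no background share to be set against.

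**Figure D1:**
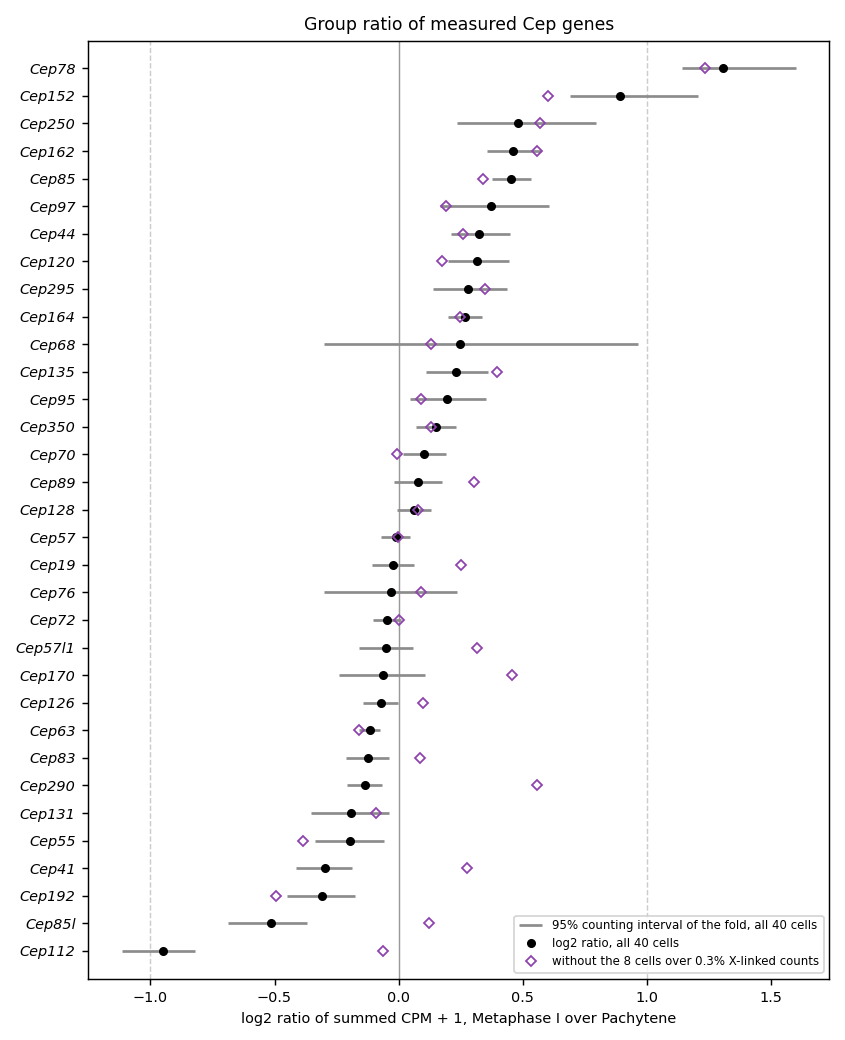
The log2 ratio of summed CPM + 1, Metaphase I over Pachytene, of 33 of the 34 measured Cep genes, with all 40 cells (filled points) and without the 8 libraries with over 0.3% X-linked counts (open diamonds). Grey bars are 95% counting intervals of the fold and dashed lines mark 2-fold: Cep78 lies past the upper line with and without the 8 libraries, and Cep112 comes close to the lower line only with all 40.

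Levels between genes were compared per kb of merged exons. Since the libraries keep 3′ ends, dividing by exon length may itself shift this order, and by CPM alone 5 of the 8 highest members were the same. Cep19 had the highest level at 82.1 CPM per kb over all cells, followed by Cep57 at 75.1, Cep63 at 63.2, Cep72 at 41.9, Cep126 at 37.0, Cep85 at 32.8, Cep70 at 28.9 and Cep89 at 22.1 CPM per kb. At the other end were Cep68 at 0.484 and Cep170b at 0.018 CPM per kb. By counts the family was uneven too, with 6 members holding 47.1% of its counts. In every one of the 40 cells 21 members were detected.

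**Figure D2:**
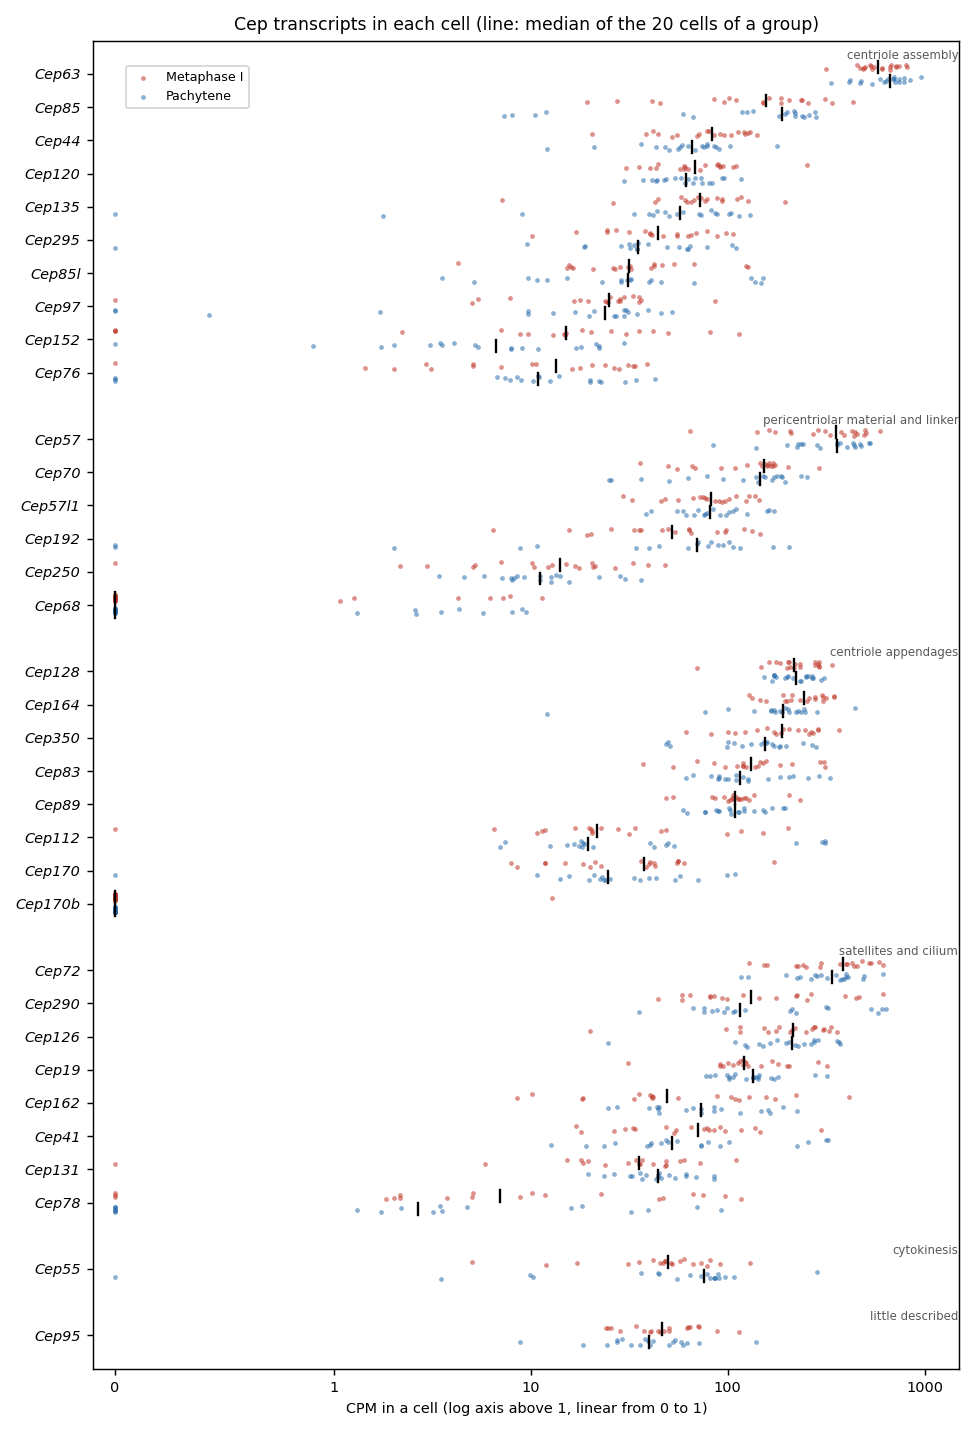
CPM of 34 of the 35 Cep genes in each cell, by role, with Metaphase I cells above Pachytene cells and a black line at the median of 20 cells; the axis is logarithmic above 1 CPM and linear from 0 to 1. Cep63 has the highest medians, 580 CPM in Metaphase I and 670 CPM in Pachytene, the points of the groups overlap for every gene shown, and Cep290, Cep112, Cep41 and Cep85 each spread over more than 10-fold among cells.

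The 10 members that act in centriole assembly were all measured, with a median log2 ratio of 0.30, or 0.22 without the 8 libraries; 7 of the 10 were positive, and 0 were over 2-fold either way. Cep63, on chromosome 9 at 102584588 to 102626534 on the minus strand, encodes a protein of the ring around the parent centriole on which the new one forms. It had 314 CPM in its lowest Metaphase I cell, a median of 580 and a highest of 816 CPM, against 333, 670 and 959 CPM in Pachytene cells. The ranges overlapped almost fully and the log2 ratio was -0.12, or -0.16 without the 8 libraries. Its exons share 239 bases, 2.49% of their length, with Anapc13 on the other strand, and without a stated strand setting reads of that stretch cannot be assigned to either gene.

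Cep152, the partner of Cep63 in that ring and a scaffold for the kinase PLK4, lies on chromosome 2 at 125563088 to 125625113, minus strand. It had 0 CPM in its lowest Metaphase I cell, a median of 15.0 and a highest of 114 CPM, against 0, 6.67 and 29.7 CPM in Pachytene cells. Most cells overlapped at these low levels. The summed levels were 22.9 CPM in Metaphase I and 11.9 CPM in Pachytene, a 1.93-fold ratio with a counting interval of 1.61 to 2.31 and a log2 ratio of 0.89, or 0.60 without the 8 libraries. Metaphase I replicate 19, the library with Sertoli markers, was the highest cell and held 25.5% of the group's Cep152 counts; without it the log2 ratio was 0.56, and without Pachytene replicate 6 it was 1.06, past 2-fold.

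Cep85, which in human cells restrains the kinase NEK2 and is needed for centriole assembly, had 19.4 CPM in its lowest Metaphase I cell, a median of 157 and a highest of 434 CPM, against 7.31, 188 and 280 CPM in Pachytene cells. The log2 ratio of the sums was 0.45, or 0.34 without the 8 libraries, while that of the medians over cells was -0.26, and the deepest Metaphase I library, replicate 13, held 23.3% of the group's counts; without it the log2 ratio was 0.24. Its paralog Cep85l had 4.26 CPM in the lowest Metaphase I cell, a median of 31.4 and a highest of 126 CPM, against 3.53, 31.2 and 152 CPM in Pachytene cells. The medians were alike and the log2 ratio of the sums was -0.51, or 0.12 without the 8 libraries and -0.12 without Pachytene replicate 7 alone. Per kb, Cep85 stood above Cep85l by 8.48-fold in Metaphase I and 4.30-fold in Pachytene, and without the 8 libraries by 12.4-fold in Metaphase I and 10.7-fold in Pachytene. It was the higher of the pair in 17 of 20 Metaphase I cells and 16 of 20 Pachytene cells. The exceptions were Metaphase I replicates 3, 7 and 17 and Pachytene replicates 2, 3, 7 and 19, the libraries with spermatid markers. The other 6 assembly genes were Cep44, Cep76, Cep97, Cep120, Cep135 and Cep295, of which Cep135 belongs to the cartwheel at the centriole's base and Cep97 caps the growing centriole. Their medians over cells ran from 13.4 CPM for Cep76 to 82.8 CPM for Cep44 in Metaphase I, and from 10.9 CPM for Cep76 to 65.4 CPM for Cep44 in Pachytene. Their log2 ratios lay between -0.03 for Cep76 and 0.37 for Cep97, and without the 8 libraries between 0.09 for Cep76 and 0.40 for Cep135, small ranges beside the spread between cells.

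The 6 members of the pericentriolar material and the linker between centrioles had a median log2 ratio of 0.05, or 0.06 without the 8 libraries, with 0 over 2-fold either way. Cep57, a protein of the inner pericentriolar material on chromosome 9 at 13807792 to 13827107, minus strand, had 64.1 CPM in its lowest Metaphase I cell, a median of 354 and a highest of 591 CPM, against 84.1, 359 and 526 CPM in Pachytene cells. The ranges and medians nearly coincided, and the log2 ratio was -0.01, or -0.0019 without the 8 libraries. Its paralog Cep57l1 had 29.3 CPM in the lowest Metaphase I cell, a median of 82.3 and a highest of 143 CPM, against 38.6, 81.2 and 171 CPM in Pachytene cells. Again the groups overlapped, with a log2 ratio of -0.05, or 0.32 without the 8 libraries. Per kb, Cep57 stood above Cep57l1 by 4.86-fold in Metaphase I and 4.73-fold in Pachytene, in 20 of 20 cells of each group. These were 4.57-fold in Metaphase I and 5.71-fold in Pachytene without the 8 libraries.

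Cep70, which binds gamma-tubulin in human cells, had 35.6 CPM in its lowest Metaphase I cell, a median of 152 and a highest of 290 CPM, against 24.9, 146 and 253 CPM in Pachytene cells. Cep192, the scaffold that brings Aurora A and PLK4 to the centrosome, had 6.46 CPM in its lowest Metaphase I cell, a median of 51.9 and a highest of 146 CPM, against 0, 69.9 and 205 CPM in Pachytene cells. The groups overlapped for both genes, with log2 ratios of 0.10 for Cep70 and -0.31 for Cep192. Cep70 was at -0.0081 and Cep192 at -0.49 without the 8 libraries, so the sign for Cep70 turned. Cep250, also called C-Nap1, the anchor of the linker between centrioles, had 0 CPM in its lowest Metaphase I cell, a median of 14.0 and a highest of 47.7 CPM, against 3.42, 11.1 and 36.4 CPM in Pachytene cells. Its log2 ratio of 0.48, or 0.57 without the 8 libraries, stood on 225 counts in Metaphase I and 203 in Pachytene, within overlapping ranges, and 1149 bases of its exons, 11.1%, overlap a gene on the other strand. Cep68, another linker protein, had 44 counts in 7 Metaphase I cells and 45 counts in 9 Pachytene cells, too few to show a difference.

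Of the 8 appendage genes, 7 were measured, with a median log2 ratio of 0.06, or 0.13 without the 8 libraries. Cep89, a distal appendage protein, had 48.8 CPM in its lowest Metaphase I cell, a median of 108 and a highest of 232 CPM, against 59.1, 108 and 195 CPM in Pachytene cells, with a log2 ratio of 0.08, or 0.30 without the 8 libraries. Cep170, a subdistal appendage protein, had 7.91 CPM in its lowest Metaphase I cell, a median of 37.4 and a highest of 173 CPM, against 0, 24.6 and 109 CPM in Pachytene cells. Both genes overlapped between the groups, and the log2 ratio of Cep170 was -0.06, or 0.46 without the 8 libraries. The paralog Cep170b had 9 counts, all in Metaphase I replicate 19, the library with Sertoli markers, and 0 of 17663240 counts in Pachytene, which allows a level of up to 0.17 CPM. Cep128, a subdistal appendage protein, and Cep350, which anchors microtubules at the centriole in human cells, had log2 ratios of 0.06 and 0.15, or 0.08 and 0.13 without the 8 libraries.

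Cep112, grouped here with the appendage genes, had the lowest ratio of the family, and that ratio was close to 0 without the 8 libraries. Over all cells it had 0 CPM in its lowest Metaphase I cell, a median of 21.6 and a highest of 202 CPM, against 6.94, 19.6 and 313 CPM in Pachytene cells. Summed, it was 1.95-fold lower in Metaphase I, with a counting interval of 1.77 to 2.17, at 38.6 CPM in Metaphase I and 75.4 CPM in Pachytene. The log2 ratio of -0.95 became -0.07 without the 8 libraries, 0.14 as a ratio of medians, -0.46 when Pachytene replicate 7 was left out and -1.46 when Metaphase I replicate 3 was. Its exons share 80 bases with the antisense gene Cep112os1.

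The highest Cep112 levels of each group were in libraries with high spermatid markers. Metaphase I replicates 3, 7 and 17 had 202, 151 and 98.9 CPM, replicate 19 had 22.7 CPM, and the other 16 Metaphase I cells ran from 0 through a median of 20.3 to 116 CPM. Pachytene replicates 2, 3, 7 and 19 had 312, 302, 221 and 313 CPM, and the other 16 Pachytene cells ran from 6.94 through a median of 18.2 to 53.0 CPM. In Pachytene these 4 libraries stood apart from the rest, and in Metaphase I 1 other cell reached as high as replicate 17. The part of these libraries' cell content in the ratio was not tested.

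In the libraries with spermatid markers Cep41 and Cep83 were also high and Cep85 was low, and these were not the only members to differ. In Pachytene replicates 2, 3, 7 and 19, Cep85l had 131 to 152 CPM, against at most 67.3 CPM in the other 16. Cep57l1 had 125 to 171 CPM against at most 110, and Cep170 had 57.5 to 109 CPM against at most 54.0. Cep55 was low there, at 0 to 10.3 CPM against at least 36.2. In Metaphase I each of these genes overlapped with the other 16 cells. Cep41, needed for tubulin glutamylation in cilia, had 298, 146 and 137 CPM in Metaphase I replicates 3, 7 and 17, 17.0 CPM in replicate 19 and 18.0 to 117 CPM in the other 16. In Pachytene it had 324, 314, 224 and 255 CPM in replicates 2, 3, 7 and 19, and 12.7 to 102 CPM in the other 16. Its log2 ratio was -0.30 with all cells and 0.27 without the 8 libraries, and 0.04 without Pachytene replicate 7 alone. Cep83, a distal appendage protein chosen after its values were seen, had 184, 313 and 293 CPM in Metaphase I replicates 3, 7 and 17, 36.9 CPM in replicate 19 and 52.8 to 309 CPM in the other 16, so these overlapped. In Pachytene it had 291, 332, 215 and 255 CPM in the 4 libraries and 61.7 to 205 CPM in the other 16. Its log2 ratio was -0.13, or 0.09 without the 8 libraries.

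Cep85 ran the other way. It had 19.4, 45.4 and 27.5 CPM in Metaphase I replicates 3, 7 and 17 and 41.2 CPM in replicate 19, all below the 85.1 to 434 CPM of the other 16. In Pachytene it had 10.5, 8.05, 7.31 and 12.0 CPM in the 4 libraries, below the 59.1 to 280 CPM of the other 16. For Cep85 the libraries thus lay apart from the rest in both groups.

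**Figure D3:**
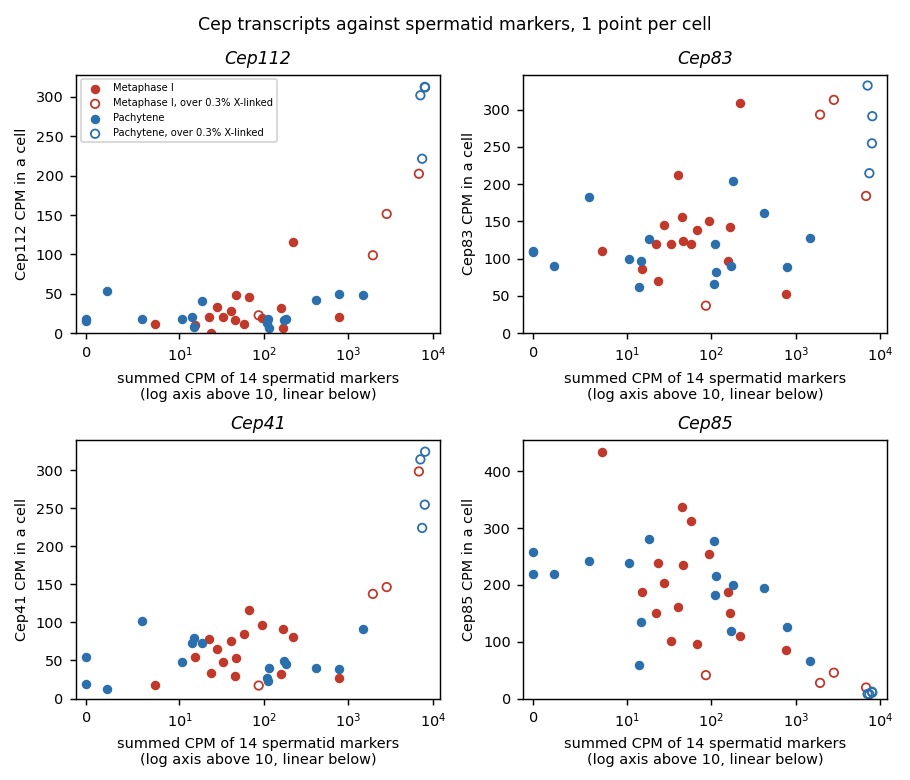
CPM of Cep112, Cep83, Cep41 and Cep85 in each cell against the summed CPM of 14 spermatid markers, with Metaphase I in red, Pachytene in blue and open points for the 8 libraries with over 0.3% X-linked counts; the horizontal axis is logarithmic above 10 CPM. The 4 open Pachytene points hold 221 CPM or more of Cep112, where the other Pachytene cells hold at most 53.0 CPM, and at most 12.0 CPM of Cep85, where the others hold at least 59.1 CPM.

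In the promoters of the family 3 motifs were searched on both strands, in 250 bases before to 50 after each RefSeq start. The X-box bound by RFX factors, a motif common at genes of the cilium, was searched as GT, any 2 bases, CC, any 3 bases, G, any base and AAC. RefSeq promoters of build GRCm38.p6 matched 30 of the 35 members. The X-box was in 4 of the 30 (13.3%), Cep112, Cep19, Cep44 and Cep83, and in 2.48% of the other 26995 genes. The CHR element of cell cycle genes, TTTGAA, was in 9 of the 30 (30%) and in 20.2% of the other genes. The 9 were Cep112, Cep162, Cep164, Cep170, Cep295, Cep55, Cep57l1, Cep72 and Cep89. The MYB site, TAACGG, was in 3 (10%), Cep131, Cep135 and Cep85, and in 3.14% of the other genes. The X-box matches that lie before a RefSeq start are shown because Cep112 and Cep83 are among the members described above. In addition, 1 CHR match before a RefSeq start of Cep55 is shown because that gene acts in cell division. Capitals mark the motif, on the gene's own strand, with Cep112 at chr11:108425018-108425047 and chr11:108425174-108425203 on the plus strand, Cep83 at chr10:94688760-94688789 on the plus strand, Cep44 at chr8:56550661-56550690 on the minus strand and Cep55 at chr19:38054996-38055025 on the plus strand.
Cep112, distal match: actagacaGTTACCATAGCAACggagctgc
Cep112, proximal match: cccggagcGTCGCCATGGCAACagagttga
Cep83: cctctcagccctccgaGTTTCCCGGGCTAC
Cep44: ttggtacgGTAGCCTTGGGAACctttcagt
Cep55: acagccgcgggaTTCAAActcccggaagcg
The Cep83 and Cep55 matches read on the other strand. Cep112 has the X-box in 2 places and Cep41 has no match to these letters in its window. The matches are letters in a window, with no binding measured here. Gene starts in the deposited coordinates differ from these RefSeq starts. There Cep83 begins at 94688654 and Cep44, on the minus strand, at 56551047, so both matches lie inside the genes. The stretches shown for the proximal Cep112 match and for Cep55 span the deposited starts, 108425192 and 38055011.

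The 9 members of satellites and the cilium had a median log2 ratio of -0.05, or 0.27 without the 8 libraries, and included Cep78. Cep78, a centriole protein that in humans is needed for vision and male fertility, lies on chromosome 19 at 15955773 to 15984989, minus strand. It had 0 CPM in its lowest Metaphase I cell, a median of 6.95 and a highest of 117 CPM, against 0, 2.68 and 92.3 CPM in Pachytene cells. The ranges overlapped, and in each group a minority of cells held most of the counts. Summed, it had 479 counts or 34.9 CPM in Metaphase I and 239 counts or 13.5 CPM in Pachytene, a 2.58-fold ratio with a counting interval of 2.21 to 3.03.

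The log2 ratio of Cep78 was 1.31, and 1.24 without the 8 libraries. It was detected in 17 of 20 Metaphase I cells and 13 of 20 Pachytene cells, and with cells thinned to 340000 counts in 14 of 17 and 7 of 19. Metaphase I replicate 14 held 24.8% of its group's Cep78 counts and Pachytene replicate 16 held 42.7%. Leaving out replicate 14 gave a log2 ratio of 1.02 and leaving out Pachytene replicate 16 gave 1.95. With equal weight for each cell the ratio was 0.81, under 2-fold.

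Cep19, which recruits the GTPase RABL2 to the cilium base, had 31.2 CPM in its lowest Metaphase I cell, a median of 121 and a highest of 318 CPM, against 77.2, 135 and 321 CPM in Pachytene cells, with a log2 ratio of -0.02, or 0.25 without the 8 libraries. Cep72, a satellite protein that in human cells helps to hold the spindle poles together, lies on chromosome 13 at 74036500 to 74062299, minus strand. It had 128 CPM in its lowest Metaphase I cell, a median of 384 and a highest of 616 CPM, against 116, 337 and 617 CPM in Pachytene cells, with a log2 ratio of -0.05, or 0.0024 without the 8 libraries. For both genes the groups overlapped almost fully.

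Cep126, a microtubule-binding satellite protein, had 19.9 CPM in its lowest Metaphase I cell, a median of 215 and a highest of 360 CPM, against 24.7, 212 and 372 CPM in Pachytene cells, again overlapping. Its log2 ratio was -0.07 from sums, 0.10 without the 8 libraries, 0.019 with equal weight per cell and 0.021 from medians, so its direction turned. Cep162, which marks the ends of axonemal microtubules for the transition zone, had 8.52 CPM in its lowest Metaphase I cell, a median of 48.8 and a highest of 411 CPM, against 24.5, 73.4 and 224 CPM in Pachytene cells. The Metaphase I range was the wider and reached past the other at both ends. Its log2 ratio was 0.46 from sums, 0.56 without the 8 libraries, 0.04 with equal weight per cell and -0.58 from medians, so the direction depended on how cells were weighted. Cep41, described above with the spermatid markers, had medians of 70.6 CPM in Metaphase I and 52.3 CPM in Pachytene. Cep131, a satellite protein, had a log2 ratio of -0.19, or -0.09 without the 8 libraries.

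Cep55, a protein of the midbody and, in germ cells, of the bridges that join daughter cells, had 5.05 CPM in its lowest Metaphase I cell, a median of 49.7 and a highest of 129 CPM, against 0, 75.8 and 285 CPM in Pachytene cells. The ranges overlapped, and the log2 ratio was -0.19, or -0.38 without the 8 libraries. Cep95, of which little is known, had medians of 46.5 CPM in Metaphase I and 39.7 CPM in Pachytene and a log2 ratio of 0.19, or 0.09 without the 8 libraries.

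Within each group, some members followed the M-phase genes across cells and others ran opposite to them, in shares near those of all genes. The measure was Spearman's correlation over the 20 cells of a group between a gene's CPM and the summed CPM of the 13 M-phase genes, for the 7753 genes detected in 30 or more of the 40 cells, 33 of them members. It is a description: each point is 1 library, and both values share that library's total. In Metaphase I, 6 of 33 members were over 0.5 and 5 were under -0.5, beside 16.7% and 13.0% of the 7753 genes. The 6 were Cep57, Cep72, Cep63, Cep55, Cep95 and Cep164, and the 5 were Cep78, Cep290, Cep162, Cep97 and Cep85. In Pachytene, 5 were over 0.5 and 3 under -0.5, beside 13.1% and 6.53% of genes. The 5 were Cep72, Cep350, Cep57, Cep63 and Cep164, and the 3 were Cep131, Cep78 and Cep290. The members' medians were 0.04 in Metaphase I and 0.05 in Pachytene, so the family as a whole showed no common direction.

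Cep72 correlated with the M-phase genes at 0.90 in Metaphase I and 0.82 in Pachytene, or 0.98 and 0.85 over the 16 cells of each group left without the 8 libraries. It stood 24th from the top of the 7753 genes in Metaphase I and 57th in Pachytene. In Metaphase I, the cell with the lowest M-phase sum, replicate 18, had 128 CPM of Cep72, and the cell with the highest, replicate 16, had 616 CPM. In Pachytene, replicate 10 had the lowest sum and 265 CPM of Cep72, and replicate 12 had the highest sum and 488 CPM. Leaving out 1 cell at a time, the correlation stayed between 0.88 and 0.93 in Metaphase I and between 0.79 and 0.87 in Pachytene. Its correlation with total counts was -0.31 in Metaphase I and 0.25 in Pachytene.

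Cep57 correlated at 0.91 in Metaphase I and 0.55 in Pachytene, or 0.90 and 0.58 over 16 cells, and Cep63 at 0.73 and 0.53, or 0.84 and 0.54. Cep164, a distal appendage protein chosen after its values were seen, correlated at 0.51 in Metaphase I and 0.52 in Pachytene, or 0.57 and 0.63 over 16 cells. These 4 were the members over 0.5 in both groups. Leaving out 1 cell at a time, only Cep72 stayed over 0.5 in both. The lowest value in Pachytene was 0.48 for Cep57, 0.46 for Cep63 and 0.44 for Cep164. In Metaphase I that of Cep164 was 0.45. For 2 of the 4, Cep164 and Cep63, being over 0.5 also depended on the scaling. Cep164 was at 0.36 in Metaphase I with median-of-ratios scaling, 0.41 with thinned cells and 0.49 with TMM scaling. Cep63 was at 0.47 in Pachytene with median-of-ratios scaling and with thinned cells. Cep55 was at 0.62 in Metaphase I and 0.16 in Pachytene, and the difference was not tested.

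Cep78 and Cep290 were the members under -0.5 in both groups. Cep78 was at -0.72 in Metaphase I and -0.63 in Pachytene, or -0.76 and -0.70 over 16 cells. Its counts lay mainly in cells with low M-phase sums, although its summed level was higher in Metaphase I. Cep290, a protein of the cilium's transition zone chosen after its values were seen, was at -0.65 and -0.60, or -0.84 and -0.73 over 16 cells. With median-of-ratios scaling its Pachytene correlation was -0.37. It had 44.0 CPM in its lowest Metaphase I cell, a median of 132 and a highest of 613 CPM, against 35.3, 116 and 634 CPM in Pachytene cells. Its log2 ratio was -0.14 with all cells and 0.56 without the 8 libraries, and 881 bases of its exons, 7.58%, overlap a gene on the other strand. Metaphase I replicates 3, 7 and 17 had 465, 449 and 266 CPM of Cep290 and the other 16, without replicate 19, had 44.0 to 613 CPM, so these overlapped. Pachytene replicates 2, 3, 7 and 19 had 605, 634, 535 and 581 CPM, above the 35.3 to 321 CPM of the other 16. Cep131, also chosen after its values were seen, was at -0.34 in Metaphase I and -0.80 in Pachytene, where it stood 8th from the bottom of the 7753 genes.

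**Figure D4:**
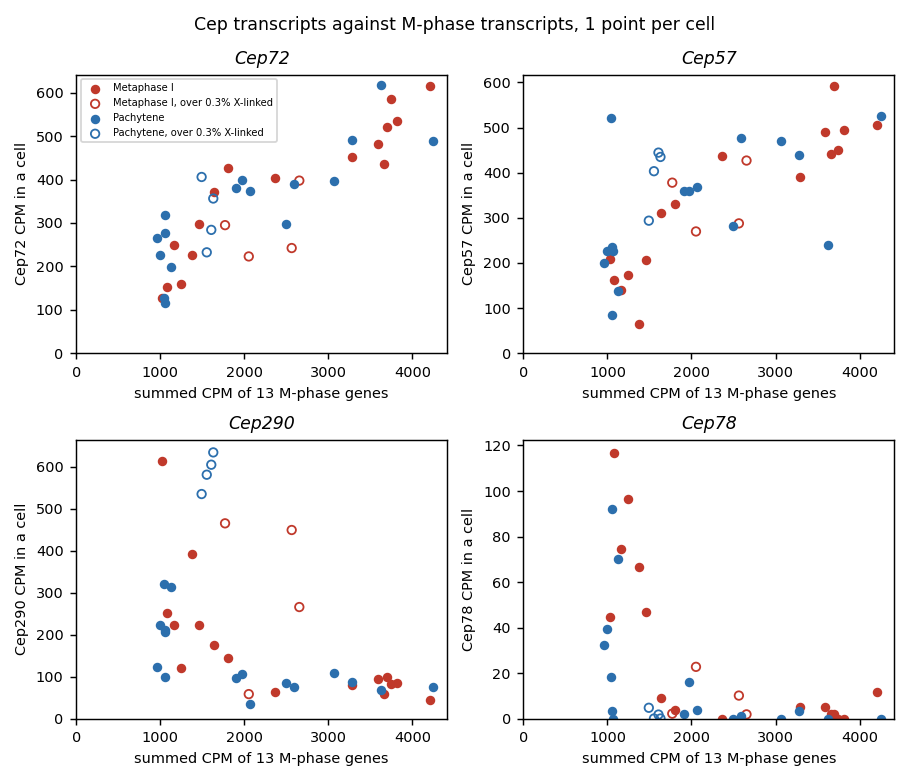
CPM of Cep72, Cep57, Cep290 and Cep78 in each cell against the summed CPM of 13 M-phase genes, with Metaphase I in red, Pachytene in blue and open points for the 8 libraries with over 0.3% X-linked counts. Cep72 and Cep57 are higher in cells with higher M-phase sums in both groups, Cep78 and Cep290 are lower there, and the cells of the 2 groups overlap along both axes.

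Pairs of members were also compared over the 20 cells of each group. Of 528 pairs among 33 members, 10 had a Spearman correlation over 0.5 in both groups, beside 2.18% of the 30143730 pairs among 7765 genes. Without the 8 libraries it was 8 pairs, beside 2.17%, and 3 of the 10 were among them: Cep164 with Cep63, Cep350 with Cep63 and Cep164 with Cep72. With or without the 8 libraries, the share among member pairs was not above that of all gene pairs. The median over pairs was 0.08 in Metaphase I and 0.02 in Pachytene. Cep164 and Cep63 had the highest value reached in both, 0.78 in Metaphase I and 0.70 in Pachytene, or 0.75 and 0.64 over 16 cells. Cep41 and Cep83 followed at 0.71 and 0.63, but over the 16 cells these were 0.50 and 0.28. Cep57 and Cep78 ran opposite, at -0.79 in Metaphase I and -0.49 in Pachytene, or -0.77 and -0.52 over 16 cells. These pairs were picked from all 528 for their values.

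Other centrosome genes without a Cep name, listed by the same roles, were set beside the members. Of 24 measured genes of centriole assembly, 2 were over 2-fold higher and 0 lower, and their median log2 ratio was 0.11. They were Rttn, the gene of rotatin, at 1.13, from 171 counts in Metaphase I and 91 in Pachytene, and Cntrob at 1.01, from 228 and 137 counts, and without the 8 libraries neither passed 2-fold and the median was 0.12. Of 20 pericentriolar and gamma-tubulin genes, 2 were higher and 0 lower, at a median of 0.11. They were Tubgcp5, a subunit of the gamma-tubulin ring, at 1.34 and Ckap5, a microtubule polymerase, at 1.02. Tubgcp5 was detected in 8 Metaphase I cells and 10 Pachytene cells. Replicate 13, the deepest Metaphase I library, held 44.8% of the group's Tubgcp5 counts, 32.2% of Ckap5 and 32.9% of Cntrob. Without the 8 libraries 3 of these 20 genes were higher and their median was 0.02. Tubgcp5 was then at 1.16, Ckap5 at 1.07 and Akap9, an anchor protein of the centrosome and Golgi, at 2.54, against 0.33 with all 40. Akap9 was named after its values were seen. With all 40 libraries it was detected in 12 Metaphase I cells and 7 Pachytene cells, with a Pachytene median of 0 CPM. Pachytene replicate 7, among the 8 libraries, held 38.0% of the group's Akap9 counts. Of 19 appendage, satellite and cilium base genes, 1 was higher, Ccdc61 at 1.39, and 0 were lower, with a median of 0.14; Ccdc66 was next at 0.52. Ccdc61, at 1.41, was again the 1 higher gene without the 8 libraries, where 0 were lower and the median was 0.20. Of all measured genes, 8.49% were over 2-fold higher, or 5.65% without the 8 libraries, again with no matching by level.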

How the data were processed

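The authors deposited 1 table of raw counts, whole numbers for 55492 genes in 40 single-cell libraries, whose header and exon columns have the form that featureCounts writes. UMI-tools, STAR, featureCounts and the GRCm38 build are named in the submitters' processing notes, without versions. The protocols in the labels describe a modified STRT-seq library with oligo(dT) priming and selection of 3′ ends. The sources used here do not give the strand setting, the annotation release, or whether counts are reads or molecules.

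For each group, a gene's counts in its 20 cells were added and scaled to CPM by the group's total. The log2 ratio sets Metaphase I over Pachytene after adding 1 CPM to each. A gene was measured at 20 or more summed counts, and over 2-fold means a log2 ratio beyond 1 either way. Fold intervals are exact conditional binomial intervals at 95%, and a count of 0 allows up to 3 counts; both cover counting error only and are too narrow if counts are reads. Since no animal or culture is named, no test was made and no p-value is given. No 2 libraries of a group were alike within sampling noise: over 190 pairs a group and 11047 genes, the lowest chi-square per degree of freedom was 2.69 in Metaphase I and 4.08 in Pachytene.

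The members, gene lists and alternatives were chosen with earlier results of these data known. Values over cells are given for the 8 members highest per kb, the 5 highest and 5 lowest log2 ratios among members with 100 or more summed counts, members over 2-fold, and the 3 paralog pairs; up to 2 genes of each other centrosome list are named by the largest absolute ratio. The paralog ratios and member pairs without the 8 libraries were added after seeing the data. The counts and medians over members include 1 gene that is not reported singly here. Coordinates are those of the table, 1-based. Cep170b has exons on a patch sequence besides chromosome 12, so its exon length, and with it its level per kb, is uncertain. Promoter sequences are from RefSeq. The ratio and its threshold were tested on simulated counts that varied between cells of a group by depth and sampling noise alone. That simulation cannot show how they behave under the wider spread between the real cells. Python 3.11.15, numpy 2.4.6, pandas 2.3.3, scipy 1.17.1, matplotlib 3.10.9, R 4.3.3 and edgeR 4.0.16 were used, edgeR for TMM scaling alone.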

Additional observations from a re-analysis of the deposited data

How the results depend on the processing

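The count of members over 2-fold higher, 1 as reported, was 2 from medians over cells (Cep78 and Cep152) and 0 with 10 CPM added in place of 1. With equal weight per cell it was 1 as well, but the gene was Cep152 at 1.27 and not Cep78. The count over 2-fold lower, 0 as reported, was 1 with thinned cells (Cep112, -1.12). The log2 ratio of the summed family, 0.029 as reported, was -0.013 with TMM scaling, 0.013 with median-of-ratios scaling, 0.050 with totals that leave out mitochondrial and ribosomal protein genes, -0.0037 with thinned cells and 0.12 without the 8 libraries. The cause of these shifts was not tested. Leaving out 1 cell at a time, the higher count ran from 1 to 2, the lower count from 0 to 1, the members' median log2 ratio from 0.03 to 0.13 and the family's log2 ratio from 0.011 to 0.066; the higher count was 2 without Pachytene replicate 6. The lower count was 1 without Metaphase I replicate 3, 7, 17 or 18, or without Pachytene replicate 6, 8, 15, 16 or 17. Of 22 members examined singly, 9 changed the sign of the log2 ratio with some cell left out: Cep170, Cep19, Cep41, Cep57, Cep57l1, Cep70, Cep72, Cep89 and Cep290. No paired analysis was possible because the replicate numbers only name cells and no test was made. Members near or under 20 CPM, such as Cep78, Cep152, Cep250 and Cep68, rest on few counts a cell, and the part of depth in their absence from a cell was not tested. Cep78 was detected in 17 of 20 Metaphase I cells and 13 of 20 Pachytene cells. With cells thinned to 340000 counts it was detected in 14 of 17 and 7 of 19.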
